A study of Sus scrofa with 12 samples.

Results

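The genes described here make cholesterol or take it up, and they are 7 listed symbols of the coding-gene table: HMGCS1, IDI1, FDFT1, SQLE, LSS, DHCR7 and SCARB1. A row was taken where its symbol is one of these, which gave 6 genes of the 21674 coding genes, since no row carries the symbol IDI1. Testis RNA of HZ (Hezuo) and LC (Landrace) boars was sequenced in 12 libraries, 3 for each breed and age. Ha are HZ boars and La are LC boars at 30 days of age, and Hb are HZ boars and Lb are LC boars at 120 days of age. The boars were castrated to obtain the testes and had been kept under the same conditions. Each library mixes germ cells, Sertoli cells, Leydig cells and the other cells of the organ. The estimated counts of a library summed to between 17165519 (Hb3) and 23758931 (Ha1).

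Cholesterol is built from acetyl-CoA, first through mevalonate to the isoprenoid farnesyl diphosphate, then through squalene and lanosterol to cholesterol itself. Cells also take up cholesterol from lipoproteins through surface receptors. In the testis, Leydig cells use cholesterol to make androgens, Sertoli cells take up lipid from dying germ cells, and developing germ cells make sterol intermediates that are known to accumulate in the testis.

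Levels are given as CPM, read counts scaled to library size with TMM factors over the 12 libraries, for comparing a gene between libraries, and as FPKM, fragments scaled by transcript length and by mapped fragments, for comparing genes with each other. Groups were compared with the quasi-likelihood test of edgeR on all genes that passed its filter on low counts, and all 6 genes passed it in every comparison. A gene was called, and is said to have risen or fallen, at a Benjamini-Hochberg adjusted p under 0.05 together with an absolute log2 fold change over 1. Fold changes are the second group over the first, so Ha vs Hb above 0 means higher at 120 days. Exact permutation of 3 against 3 libraries reaches no p below 0.1 for a single gene, and the adjusted p values rest on the variance that edgeR models across genes.

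With age, LSS and SCARB1 fell in both breeds, DHCR7 fell and FDFT1 rose in HZ boars, and HMGCS1 fell in LC boars. In Ha vs Hb, 4 of the 6 genes were called, against 51.4% of all 16548 genes tested. Of these, 1 was higher at 120 days, against 28.2% of all genes, and 3 were lower, against 23.2%. In La vs Lb, 3 of the 6 were called, against 47.6% of 16637 genes, and all 3 were lower at 120 days, against 20.1%. In LC boars 0 of the 6 were called higher by edgeR, DESeq2 or limma, against 27.5% of all genes by edgeR. FDFT1 was higher there at an edgeR adjusted p of 0.00125 and missed only the fold threshold, with a log2 difference of 0.65. The 6 genes had a median log2 fold change of -0.92 with age in HZ boars and of -0.71 in LC boars, and all genes tested had -0.02 and 0.01. The share called lower, 3 of 6 in each breed, was thus larger than among all genes, and this difference in shares was not tested.

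**Figure D1:**
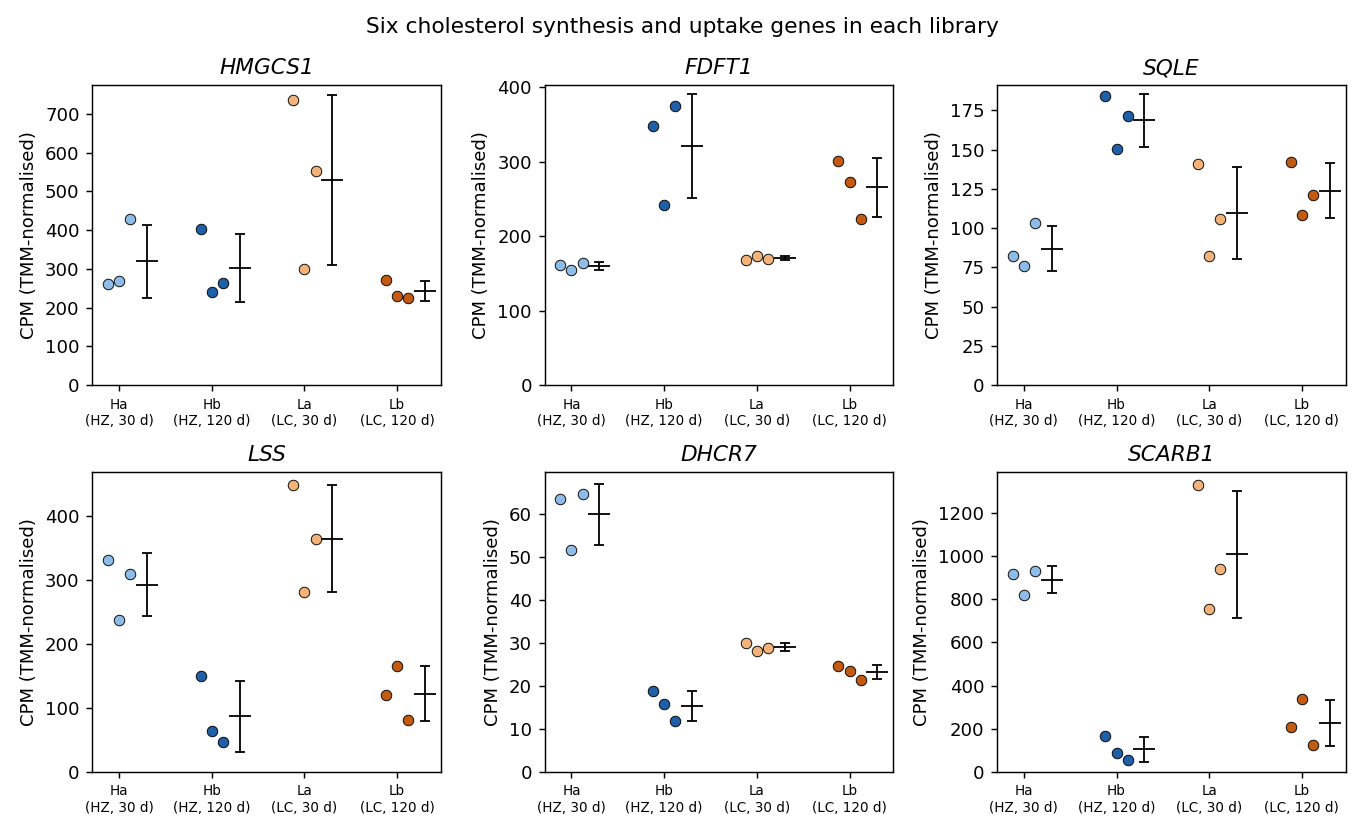
TMM-normalised CPM of the 6 genes found, with 1 point for each library, and the mean and SD of the 3 libraries of a group to the right of its points. LSS and SCARB1 are lower in every 120-day library than in every 30-day library of the same breed, FDFT1 is higher, and DHCR7 stands at 51.7 to 64.5 CPM in Ha and at 30.0 CPM or less in the other groups.

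HMGCS1 (gene 100524223, chr16:27936225-27957261 of Sscrofa11.1) encodes the cytosolic HMG-CoA synthase, an enzyme of the early steps that lead to mevalonate. In LC boars it was at 736, 299 and 551 CPM in La1, La2 and La3, and at 272, 231 and 224 CPM in Lb1, Lb2 and Lb3. Every La library lay above every Lb library, but La2 lay close to Lb1 and far below La1. HMGCS1 fell in La vs Lb by 1.11 on the log2 scale (SE 0.28, edgeR adjusted p = 0.00738), and without La1 the difference was -0.81 and the gene was not called. In HZ boars the libraries were at 262, 269 and 428 CPM in Ha1, Ha2 and Ha3, and at 403, 241 and 262 CPM in Hb1, Hb2 and Hb3. The groups overlapped, with Ha3 and Hb1 well above the other libraries of their groups. The log2 difference was -0.08 (SE 0.27, edgeR adjusted p = 0.805), and it was above 0 without Ha3 (0.18), Hb2 (0.02) or Hb3 (0.02). The change of HMGCS1 with age was not shown to differ between the breeds, since the interaction was -1.05 on the log2 scale (SE 0.43, edgeR adjusted p = 0.166). These are levels in bulk tissue, in which fewer cells of a type and less RNA per cell cannot be told apart.

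IDI1, isopentenyl-diphosphate isomerase, interconverts the isoprenoid building blocks. The row LOC100625049, which the table describes as isopentenyl-diphosphate Delta-isomerase 1, lies outside the symbol rule and was chosen after its values were seen. Its counts are partly not whole, as are 31.6% of all gene counts. Whether its reads are shared with a similar gene was not tested, and its values are uncertain. It was at 15.7, 16.4 and 22.7 CPM in Ha1 to Ha3, at 11.13, 8.54 and 4.29 CPM in Hb1 to Hb3, at 40.6, 28.0 and 32.9 CPM in La1 to La3, and at 12.95, 10.54 and 10.1 CPM in Lb1 to Lb3. Within each breed the 30-day libraries lay above the 120-day libraries, and the La libraries lay above all others. In Ha vs La the log2 difference was 0.888 (SE 0.185, edgeR adjusted p = 0.0141), under the fold threshold. The row was called there without Ha3 (1.07) and without La2 (1.02). The row fell in Ha vs Hb (log2 fold change -1.19, SE 0.35, edgeR adjusted p = 0.0184) and in La vs Lb (log2 fold change -1.58, SE 0.18, edgeR adjusted p = 9.35e-05). The first of these calls was lost without Ha3, where the log2 difference was -1.01, and without Hb3, where it was -0.89.

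FDFT1 (gene 100312971, chr14:14976259-15010701) encodes squalene synthase, which joins farnesyl diphosphate into squalene. It was at 161, 155 and 165 CPM in Ha1 to Ha3, and at 348, 242 and 374 CPM in Hb1 to Hb3. LC libraries were at 168, 174 and 170 CPM in La1 to La3, and at 301, 273 and 223 CPM in Lb1 to Lb3. The 6 libraries of 30-day-old boars lay in a narrow band, and all 6 libraries of 120-day-old boars lay above it. FDFT1 rose in Ha vs Hb, from 160 ± 5.06 to 321 ± 70.3 CPM (mean ± SD, n = 3), with a log2 fold change of 1.01 (SE 0.18, edgeR adjusted p = 0.0019). It lies just past the fold threshold, and the call was lost with library totals in place of TMM (0.69), with limma on log2(FPKM + 1) and log2(FPKM + 0.1) (both 0.60), without a filter (0.99), and without Ha2 (0.97), Hb1 (0.95) or Hb3 (0.88). In La vs Lb the log2 difference was 0.65 (SE 0.12, edgeR adjusted p = 0.00125), past the p threshold and under the fold threshold. The interaction for FDFT1 was -0.36 on the log2 scale (SE 0.22, edgeR adjusted p = 0.346).

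SQLE (gene 100113409, chr4:14669789-14700152) encodes squalene epoxidase, which takes the next step. HZ libraries were at 82.1, 75.5 and 103 CPM in Ha1 to Ha3, and at 184, 150 and 172 CPM in Hb1 to Hb3. All 3 Hb libraries lay above all 3 Ha libraries. The log2 difference was 0.95 (SE 0.16, edgeR adjusted p = 0.00137), just under the fold threshold, and SQLE was called with DESeq2 and with RLE factors (both 1.01), without Ha3 (1.09) and without Hb2 (1.003). LC libraries were at 141, 82.0 and 106 CPM in La1 to La3, and at 142, 108 and 121 CPM in Lb1 to Lb3. These groups overlapped, and the log2 difference of 0.19 (SE 0.20, edgeR adjusted p = 0.407) was below 0 on the FPKM scales. The interaction for SQLE was -0.78 on the log2 scale (SE 0.27, edgeR adjusted p = 0.106), which did not pass the test.

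LSS (gene 100625138, on an unplaced scaffold of Sscrofa11.1) encodes lanosterol synthase, which closes the squalene chain into the sterol ring. It was at 332, 238 and 310 CPM in Ha1 to Ha3, and at 150, 63.8 and 46.5 CPM in Hb1 to Hb3. In LC boars it was at 449, 282 and 365 CPM in La1 to La3, and at 120, 166 and 81.3 CPM in Lb1 to Lb3. No 120-day library reached the lowest 30-day library, and Hb1 was more than 2 times as high as Hb2 and Hb3. LSS fell in Ha vs Hb by 1.75 on the log2 scale (SE 0.42, edgeR adjusted p = 0.00764) and in La vs Lb by 1.57 (SE 0.26, edgeR adjusted p = 0.000752). Without Hb1 the log2 fold change in HZ boars was -2.40.

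DHCR7 (gene 100627707, chr2:2377352-2391846) encodes 7-dehydrocholesterol reductase, which makes cholesterol in a final step. HZ libraries were at 63.5, 51.7 and 64.5 CPM in Ha1 to Ha3, and at 18.7, 15.7 and 11.7 CPM in Hb1 to Hb3. LC libraries were at 30.0, 28.2 and 28.9 CPM in La1 to La3, and at 24.7, 23.3 and 21.4 CPM in Lb1 to Lb3. The 4 groups did not overlap, with Ha highest, then La, then Lb, then Hb. DHCR7 fell in Ha vs Hb by 1.96 on the log2 scale (SE 0.21, edgeR adjusted p = 0.00015). In La vs Lb the log2 difference was -0.31 (SE 0.12, edgeR adjusted p = 0.0489), under the fold threshold. The change with age differed between the breeds, with an interaction of 1.63 on the log2 scale (SE 0.23, edgeR adjusted p = 0.0039). For the interaction, 1 of the 6 genes was called, against 5.14% of all 17332 genes tested, a share that was 2.48% to 3.28% without Ha1, Ha2, Hb3, La1, La2, La3 or Lb2. Markers of cell types were called in the same interaction test, among them 5 of 10 of peritubular and stromal cells and 2 of 11 of spermatogonia above 0, and 2 of 10 of spermatids below 0. Their part in the difference for DHCR7 was not tested.

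SCARB1 (gene 397018, chr14:28301421-28393568) encodes the receptor SR-B1, which takes up cholesteryl esters from HDL and is known for supplying steroid-making cells. It was at 919, 819 and 933 CPM in Ha1 to Ha3, and at 168, 88.1 and 56.8 CPM in Hb1 to Hb3. In LC boars it was at 1328.5, 754 and 942 CPM in La1 to La3, and at 210, 339 and 126 CPM in Lb1 to Lb3. The lowest 30-day library (La2) was more than 2 times as high as the highest 120-day library (Lb2), with Hb1 highest in Hb and Lb2 highest in Lb. SCARB1 fell in Ha vs Hb by 3.09 on the log2 scale (SE 0.39, edgeR adjusted p = 0.000334), where the mean level in Ha was 8.53 times that in Hb. It fell in La vs Lb by 2.15 on the log2 scale (SE 0.35, edgeR adjusted p = 0.000635), where the mean level in La was 4.48 times that in Lb. The interaction was 0.93 on the log2 scale (SE 0.56, edgeR adjusted p = 0.34), so a difference between the breeds was not shown, and it ranged from 0.51 without Lb2 to 1.47 without Hb1.

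Between the breeds at 30 days, 1 of the 6 genes was called in Ha vs La, against 7.62% of 15648 genes tested. DHCR7 was lower in La, with a log2 fold change of -1.05 (SE 0.11, edgeR adjusted p = 0.00147) and all 3 La libraries below all 3 Ha libraries. Without Ha3 the value was -0.997, just inside the fold threshold, and the gene was not called. HMGCS1 had a log2 difference of 0.73 (SE 0.32, edgeR adjusted p = 0.142) and was called without La2, at 1.02. The log2 differences of the others were 0.33 for SQLE, 0.32 for LSS, 0.18 for SCARB1 and 0.09 for FDFT1, none of them called, and without La1 those of SCARB1 and SQLE were -0.05 and 0.13. The median log2 difference of the 6 genes was 0.25, and that of all genes tested was 0.00.

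At 120 days none of the 6 genes was called by edgeR in Hb vs Lb, against 3.85% of 16311 genes tested. The latter share rests on single libraries, with 6.24% without Hb2, 1.1% without Lb1, 0.838% without Lb3, 0.716% without Hb3 and 0.588% without Lb2, and none of the 6 genes was called in any of these fits. At an unadjusted p under 0.05 there were 3, and DESeq2 called 1, which was SCARB1, with a log2 fold change of 1.14. In edgeR the log2 difference of SCARB1 was 1.15 (SE 0.44, adjusted p = 0.155), with Lb3 between Hb2 and Hb1. DHCR7 was higher in all 3 Lb libraries than in all 3 Hb libraries, with a log2 difference of 0.63 (SE 0.21, edgeR adjusted p = 0.115). SQLE was lower in all 3 Lb libraries than in all 3 Hb libraries, with a log2 difference of -0.40 (SE 0.15, edgeR adjusted p = 0.144). The log2 differences of the others, whose groups overlapped, were 0.55 for LSS, -0.23 for FDFT1 and -0.27 for HMGCS1. Of these, HMGCS1 had -0.03 and LSS 1.17 without Hb1, and FDFT1 had -0.10 without Hb3. The median log2 difference of the 6 genes was 0.16, and that of all genes tested was 0.00. The comparisons within and between breeds share libraries, so their values are given side by side and are not independent.

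Between genes, the order of FPKM levels differed at the 2 ages. In Ha, SCARB1 was highest at 286 ± 19.0 FPKM (mean ± SD, n = 3), followed by HMGCS1 at 85.9 ± 25.4, FDFT1 at 79.0 ± 2.502, LSS at 58.0 ± 9.57, SQLE at 28.4 ± 4.72 and DHCR7 at 21.1 ± 2.46 FPKM. In Hb, FDFT1 was highest at 121 ± 22.2 FPKM, followed by HMGCS1 at 58.0 ± 12.2, SQLE at 38.8 ± 1.22, SCARB1 at 23.5 ± 11.6, LSS at 12.0 ± 6.93 and DHCR7 at 3.85 ± 0.81 FPKM. HMGCS1 and FDFT1 in Ha, and SCARB1 and LSS in Hb, lay within the spread of each other. In La the order was SCARB1 at 316 ± 89.4 FPKM, HMGCS1 at 138 ± 55.9, FDFT1 at 84.4 ± 0.87, LSS at 70.7 ± 15.8, SQLE at 34.8 ± 9.29 and DHCR7 at 9.99 ± 0.27 FPKM. In Lb it was FDFT1 at 112 ± 11.7 FPKM, SCARB1 at 56.5 ± 24.7, HMGCS1 at 52.2 ± 4.36, SQLE at 31.9 ± 4.61, LSS at 19.1 ± 5.79 and DHCR7 at 6.47 ± 0.20 FPKM. SCARB1 was thus the highest of the 6 genes at 30 days and FDFT1 at 120 days in both breeds, while HMGCS1 and FDFT1 in La, FDFT1 and LSS in La, and SCARB1 and HMGCS1 in Lb, were not separated by their spread, nor were HMGCS1 and LSS in Ha and La, or SCARB1 and SQLE in Lb.

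The other genes of the pathway were taken from a list of 36 genes, 6 of the early steps, 8 of the sterol steps, 9 that control synthesis and 13 of uptake, storage, transport and efflux. In Ha vs Hb, 19 of 36 were called, 5 higher and 14 lower at 120 days. In La vs Lb, 18 of 35 tested were called, 6 higher and 12 lower. These are 52.8% and 51.4% of the list, near the 51.4% and 47.6% of all genes tested. By direction, 13.9% of the list were higher and 38.9% lower in HZ boars, beside 28.2% and 23.2% of all genes. In LC boars 17.1% of the list were higher and 34.3% lower, beside 27.5% and 20.1% of all genes, and neither split was tested. The list had a median log2 fold change of -0.58 with age in HZ boars and of -0.68 in LC boars, beside -0.02 and 0.01 over all genes tested. Among all genes 4666 rose and 3844 fell in Ha vs Hb, a split that turned to 3978 and 5039 with library totals in place of TMM, to 2808 and 3831 with limma on log2(FPKM + 1) and to 3586 and 5720 with limma on log2(FPKM + 0.1). The median of all genes was then -0.32, -0.28 and -0.47 in place of -0.02, and that of the list -0.87, -0.85 and -1.08 in place of -0.58. In La vs Lb 4574 rose and 3352 fell, which limma on log2(FPKM + 0.1) turned to 3796 and 4424, with a median of -0.27 over all genes and of -0.98 over the list. In Hb vs Lb 432 were higher and 196 lower, and 366 and 94 with limma on log2(FPKM + 1) or 583 and 152 on log2(FPKM + 0.1). For the interaction 609 were above 0 and 281 below, and 882 and 199 with library totals, with a median of 0.17 in place of 0.02. The values given here are relative to the TMM scale.

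Of the early steps, 3 of 6 fell with age in HZ boars and 2 of 6 in LC boars, beside 23.2% and 20.1% of all genes. ACAT2, which makes acetoacetyl-CoA, fell in HZ boars (log2 fold change -1.46, SE 0.30) and in LC boars (-1.42, SE 0.18). MVD, the mevalonate diphosphate decarboxylase, likewise fell in HZ boars (log2 fold change -1.24, SE 0.24) and in LC boars (-1.08, SE 0.18), where the call was lost without La1 (-0.90) or Lb3 (-0.97). PMVK, the phosphomevalonate kinase, fell in HZ boars (log2 fold change -1.01, SE 0.21), just past the threshold, and had -0.51 (SE 0.14) in LC boars, with an interaction of 0.48 (edgeR adjusted p = 0.227). The PMVK call was lost with DESeq2 and RLE factors (both -0.96), with 10 counts in every library of a group (-0.999), and without Ha1 (-0.98), Ha3 (-0.98) or Hb3 (-0.88). The mevalonate kinase MVK had a log2 difference of -0.34 (SE 0.14) in HZ and -0.78 (SE 0.22) in LC boars, and was not called by edgeR, while limma on the FPKM scales called it in LC boars (-1.01 and -1.06). The prenyl transferases FDPS and GGPS1 were not called either, with log2 differences of 0.30 (SE 0.25) and 0.06 (SE 0.14) in HZ boars and -0.08 (SE 0.20) and 0.10 (SE 0.13) in LC boars. The direction of FDPS in HZ boars and of GGPS1 in both breeds depended on the scaling, that of GGPS1 in HZ boars also on Ha3 (-0.006 without it) and Hb2 (-0.016), and FDPS in LC boars was above 0 without La1 (0.10) or Lb3 (0.09).

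The sterol steps moved in opposite directions, with 3 genes risen and 4 fallen of 8 in each breed, beside 28.2% and 23.2% of all genes in HZ boars and 27.5% and 20.1% in LC boars. CYP51, the lanosterol demethylase, was at 103, 91.9 and 105 CPM in Ha1 to Ha3 and at 438, 333 and 415 CPM in Hb1 to Hb3, and at 160, 100 and 138.5 CPM in La1 to La3 and 304, 280 and 232 CPM in Lb1 to Lb3. All 120-day libraries lay above all 30-day libraries, and CYP51 rose with a log2 fold change of 1.98 (SE 0.15, edgeR adjusted p = 3.17e-05) in HZ and 1.05 (SE 0.18, edgeR adjusted p = 0.000895) in LC boars. NSDHL, a sterol dehydrogenase that acts after CYP51 in removing other methyl groups of the ring, rose with log2 fold changes of 2.47 (SE 0.16) in HZ and 1.85 (SE 0.12) in LC boars. LBR, a sterol reductase that is also the lamin B receptor, rose with 1.21 (SE 0.16) and 1.03 (SE 0.12). In LC boars the call of CYP51 was lost with library totals (0.87), with limma (0.74 and 0.75), and without La2 (0.87) or Lb1 (0.97). That of LBR was lost in HZ boars with library totals (0.89) and limma (0.65 and 0.70), and in LC boars with library totals (0.86), limma (0.66 and 0.71), and without La2 (0.96), Lb1 (0.97) or Lb2 (0.998).

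TM7SF2, which encodes the other reductase for the same step as LBR, fell in both breeds, with a log2 fold change of -2.61 (SE 0.58) in HZ and -2.04 (SE 0.18) in LC boars, and without Hb1 it had -3.42 in HZ boars. MSMO1, the methylsterol monooxygenase, fell with -2.17 (SE 0.35) and -1.95 (SE 0.28), and EBP, the sterol isomerase, with -2.13 (SE 0.31) and -1.65 (SE 0.22). SC5D, the lathosterol oxidase, fell with log2 fold changes of -1.12 (SE 0.15) and -1.05 (SE 0.23), and in LC boars its call was lost without La1 (-0.89), La3 (-0.97) or Lb2 (-0.93). HSD17B7 had log2 differences of -0.61 (SE 0.31) and -0.64 (SE 0.21) and was not called by edgeR, except in HZ boars without Hb2 (-1.04), and limma on the FPKM scales called it there (-1.08 and -1.25).

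**Figure D2:**
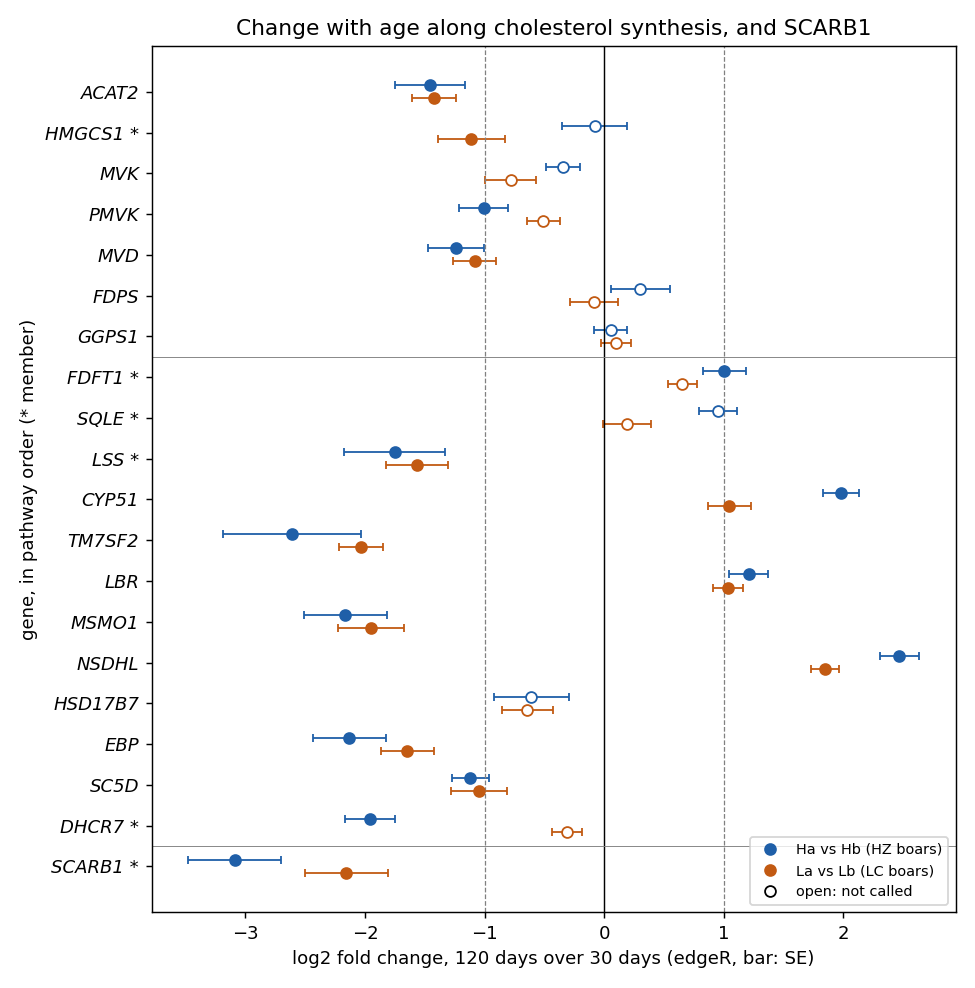
Log2 fold change with age (edgeR, 120 days over 30 days, bar: SE) of 14 listed genes of the early and sterol steps and the 6 genes found by symbol, in the order of the pathway, for HZ boars (blue) and LC boars (orange), with filled points for called genes and dashed lines at the fold threshold. CYP51, LBR and NSDHL stand right of the threshold in both breeds, between genes that fell.

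Of the genes that control synthesis, 1 rose and 3 fell of 9 in Ha vs Hb, and 1 rose and 1 fell in La vs Lb. Beside these, 28.2% of all genes rose and 23.2% fell in HZ boars, and 27.5% and 20.1% in LC boars. In LC boars both shares called lay below those of all genes, but the group still leaned lower there. Its median log2 fold change was -0.68 in LC boars, beside 0.01 over all genes, and 0.03 in HZ boars, beside -0.02. In LC boars 7 of the 9 had an unadjusted p under 0.05 in edgeR, beside 12065 of 16637 genes. NR1H3, a sterol-sensing nuclear receptor, fell with log2 fold changes of -2.21 (SE 0.20) in HZ and -1.87 (SE 0.30) in LC boars, and its relative NR1H2 rose with 1.085 (SE 0.24) and 1.001 (SE 0.12). The NR1H2 calls were lost with library totals (0.77 and 0.83), with limma on log2(FPKM + 1) (0.54 and 0.63) and log2(FPKM + 0.1) (0.59 and 0.68), in HZ boars without Ha2 (0.91) or Hb1 (0.96), and in LC boars with all 12 libraries in one fit (0.985) and without La1 (0.96), La2 (0.97), Lb1 (0.996) or Lb3 (0.995). SREBF2, the transcription factor of the sterol response, fell in HZ boars (log2 fold change -1.23, SE 0.24), and so did SCAP, its escort protein (-1.29, SE 0.14). In LC boars SREBF2 had -0.95 (SE 0.11) and SCAP -0.98 (SE 0.12), just under the fold threshold, and the interactions of 0.27 and 0.29 did not pass the test.

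Of the genes of uptake, storage, transport and efflux, 1 rose and 4 fell of 13 in Ha vs Hb, and 2 rose and 5 fell of 12 tested in La vs Lb. Their shares called were 38.5% in HZ boars, beside 51.4% of all genes (28.2% higher, 23.2% lower), and 58.3% in LC boars, beside 47.6% (27.5% higher, 20.1% lower). LIPE, the hormone-sensitive lipase that frees cholesterol from its esters, was at 14.8, 12.7 and 10.4 CPM in Ha1 to Ha3 and at 248, 178 and 289 CPM in Hb1 to Hb3. In LC boars LIPE was at 10.8, 10.7 and 10.8 CPM in La1 to La3 and at 157, 146 and 62.8 CPM in Lb1 to Lb3. Every 120-day library was far above every 30-day library, and LIPE rose with log2 fold changes of 4.24 (SE 0.24, edgeR adjusted p = 9.38e-06) and 3.51 (SE 0.32, edgeR adjusted p = 2.37e-05). LRP8, a lipoprotein receptor, rose in LC boars (log2 fold change 1.305, SE 0.30) and had 0.95 (SE 0.15) in HZ boars, under the fold threshold, with an interaction of 0.33 (edgeR adjusted p = 0.616). LIPA, the lysosomal acid lipase, fell with -2.94 (SE 0.40) and -1.83 (SE 0.21) on the log2 scale, SOAT1, which esterifies cholesterol for storage, with -2.00 (SE 0.38) and -2.26 (SE 0.17), and NPC2, which carries cholesterol out of lysosomes, with -1.60 (SE 0.23) and -1.58 (SE 0.20).

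In Ha vs La, 1 of 36 genes of the list was called, against 7.62% of all genes tested, and the early and sterol steps lay between -0.23 (LBR) and 0.67 (MSMO1) on the log2 scale. ABCA1, an efflux pump for cholesterol, was at 149, 175 and 107 CPM in Ha1 to Ha3 and at 67.6, 68.0 and 71.0 CPM in La1 to La3. The La libraries were all below the Ha libraries, with a log2 fold change of -1.06 (SE 0.17, edgeR adjusted p = 0.00544), and the gene was not called without Ha2 (-0.89) or with limma on log2(FPKM + 1) (-0.945). In Hb vs Lb none of 35 was called by edgeR or DESeq2, against 3.85% of all genes by edgeR, 11 had an unadjusted p under 0.05 in edgeR, and limma on log2(FPKM + 1) called 1, which was VLDLR at 1.02. The early and sterol steps lay between -0.55 (NSDHL) and 1.17 (TM7SF2) on the log2 scale. Without Hb1, edgeR called 4 of the list higher in Lb, namely TM7SF2 at 1.95, LIPA at 1.48, MSMO1 at 1.39 and EBP at 1.26. In that fit 3.73% of all 16672 genes tested were called. LSS and SCARB1 had log2 differences of 1.17 and 1.65 there without being called. The interaction was called for 1 of 36, against 5.14% of all genes, which was VLDLR, at 1.17 on the log2 scale (SE 0.31, edgeR adjusted p = 0.0449), and this call was lost when any of 9 libraries was left out (0.97 without Hb3 to 1.29 without La3) and with RLE factors (1.13). Limma on log2(FPKM + 1) also called LIPA, at 1.42. Without Hb1 the interaction was called for 2, which were VLDLR at 1.38 and LIPA at 1.71, beside 5.61% of all genes in that fit. CYP51 had an interaction of -0.95 and was called without Hb2 (-1.06) and without La2 (-1.07). At an adjusted p under 0.05 with any fold change, the interaction held for 5 of the 42 genes of both lists tested, against 7.25% of all genes.

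Markers of the cell types of the testis were summed as FPKM in each library. Counts of markers called with age stand beside 28.2% of all genes higher and 23.2% lower in HZ boars, and 27.5% and 20.1% in LC boars. The Leydig list (7 of 7 markers in the table, INSL3 the most abundant) summed to 5487, 5009 and 4883 FPKM in Ha1 to Ha3 and to 2180, 189 and 128 FPKM in Hb1 to Hb3. In LC boars it summed to 7771, 5341 and 6281 FPKM in La1 to La3 and to 2708, 4057 and 1712 FPKM in Lb1 to Lb3. The summed Leydig list was lower at 120 days in each breed, Hb1 stood far above Hb2 and Hb3, and Lb2 was the highest of Lb, which are also the libraries with the most LSS and SCARB1 in their groups. CYP17A1, which marks the steroid-making Leydig cells, was at 468 FPKM in Hb1 and at 7.92 and 6.63 FPKM in Hb2 and Hb3, while HSD17B3 of the same list was lowest in Hb1, at 43.5 FPKM against 74.1 and 74.7 FPKM. Of the 7 Leydig markers 4 fell in HZ boars and 5 in LC boars. INSL3, which leads the sum, was called in neither breed, with log2 differences of -0.99 in Ha vs Hb (edgeR adjusted p = 0.504) and -0.26 in La vs Lb (edgeR adjusted p = 0.549). Without Hb1, LSS, SCARB1 and DHCR7 were still called in Ha vs Hb, at -2.40, -3.61 and -2.12 on the log2 scale. The part of Leydig cell numbers in the changes of these genes was not tested.

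The spermatid list (10 of 10 markers, PRM1 the most abundant) summed to 5.72, 7.02 and 6.73 FPKM in Ha1 to Ha3 and to 5280, 5793 and 7667 FPKM in Hb1 to Hb3. In LC boars it summed to 10.8, 9.39 and 4.53 FPKM in La1 to La3 and to 3909, 3342 and 3576 FPKM in Lb1 to Lb3. The summed spermatid markers were low in all 30-day libraries, where TNP1 was listed at 0 in Ha2, Ha3, La2 and La3, and high in all 120-day libraries. FDFT1 and CYP51 were also higher at 120 days. At 30 days FDFT1 was at 79.0 and 84.4 FPKM in the means of Ha and La, and CYP51 at 36.9 and 47.9 FPKM. The spermatocyte list (8 of 8, PIWIL1 the most abundant) summed to 10.49, 10.96 and 6.5 FPKM in Ha, 151, 157 and 134 in Hb, 5.40, 4.76 and 4.41 in La, and 116, 110 and 124 in Lb. The spermatogonia list (11 of 11, DDX4 the most abundant) summed to 76.0, 73.3 and 59.5 FPKM in Ha, 177, 182 and 173 in Hb, 41.2, 40.6 and 43.9 in La, and 155, 140 and 162 in Lb, and its marker NANOS2 was listed at 0 in Hb1 and Lb2. All 8 spermatocyte markers and all 9 spermatid markers tested rose with age in both breeds, by edgeR. The spermatogonia markers were mixed, with 3 risen and 6 fallen of 11 in HZ boars and 4 risen and 5 fallen in LC boars, and the sum of that list is led by DDX4, which was at 6.76, 7.83 and 6.61 FPKM in Ha and at 146, 134 and 137 FPKM in Hb. NANOS2, NANOS3, GFRA1, SALL4 and UTF1 of that list fell in both breeds. The part of germ cell numbers in the changes of the cholesterol genes was not tested.

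The summed FPKM of the other somatic lists was also lower at 120 days, though not every marker fell. The Sertoli list (8 of 8 markers, INHA the most abundant) summed to 782, 751 and 973 FPKM in Ha, 181, 288 and 216 in Hb, 1508, 1770 and 1632 in La, and 311, 385 and 371 in Lb. The peritubular and stromal list (10 of 10, COL3A1 the most abundant) summed to 976, 950 and 978 FPKM in Ha, 102, 101 and 66.5 in Hb, 1341, 1224 and 1512 in La, and 530, 516 and 562 in Lb. Of the 8 Sertoli markers 4 fell in each breed, and of the 10 peritubular and stromal markers 8 fell in HZ boars and 5 in LC boars. ACTA2 of the latter list fell in HZ boars (log2 fold change -1.14) and rose in LC boars (1.42, edgeR adjusted p = 0.000144). Within the 120-day groups, the Sertoli sum was highest in Hb2 and Lb2, and the peritubular and stromal sum in Hb1 and Lb3. The endothelial list (5 of 5, VWF the most abundant) summed to 93.7, 94.6 and 84.4 FPKM in Ha, 13.9, 26.7 and 15.7 in Hb, 98.0, 78.3 and 91.0 in La, and 28.2, 45.7 and 28.6 in Lb. The macrophage list (5 of 5, CSF1R the most abundant) summed to 40.3, 32.7 and 32.6 FPKM in Ha, 3.49, 4.56 and 2.24 in Hb, 38.3, 33.0 and 36.3 in La, and 5.91, 9.64 and 9.91 in Lb. All 5 endothelial and all 5 macrophage markers fell in HZ boars, and 3 and 4 of them, respectively, in LC boars. Macrophages also express SCARB1 and LIPA, and the part of these cell types in the results was not tested.

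Some markers of cell types also differed between the breeds. The marker counts at 30 days stand beside 7.62% of all genes tested, by edgeR. Those at 120 days stand beside 3.85%. At 30 days, in Ha vs La, 3 of 8 Sertoli markers were higher in La, which were AMH (log2 fold change 1.96), INHA (1.51) and FSHR (1.22), and so was 1 of 7 Leydig markers, HSD17B3 (1.15). The spermatogonia marker DAZL was lower in La (-1.66), 1 of 10 tested. These 5 calls held whichever library was left out. Of the 8 spermatocyte markers 4 were lower in La, and each of these calls was lost when any of 4 or 5 of the 6 libraries was left out, and with limma on log2(FPKM + 1). The replicate block also lost those of PIWIL1 and SYCP1, and limma on log2(FPKM + 0.1) that of SYCP2. None of 10 peritubular and stromal, 5 endothelial, 5 macrophage and 5 spermatid markers was called by edgeR or DESeq2, and 8, 2, 1 and 0 of them had an unadjusted p under 0.05 in edgeR. At 120 days, in Hb vs Lb, 5 of 10 peritubular and stromal markers were higher in Lb, among them COL1A1 (log2 fold change 4.53) and ACTA2 (1.96), as were 1 of 5 endothelial and 1 of 5 macrophage markers, and 1 of 10 spermatid markers was lower. Of these 8 calls only those of COL1A1 and ACTA2 held whichever library was left out. The call of the endothelial marker PECAM1 was also lost with limma on both FPKM scales, RLE factors and the replicate block. That of the macrophage marker AIF1 was lost without a filter and with the replicate block. That of the spermatid marker AKAP4 was lost with limma on log2(FPKM + 0.1), all 12 libraries in one fit and the replicate block. None of 7 Leydig, 8 Sertoli, 8 spermatocyte and 10 spermatogonia markers was called by edgeR, while 3, 3, 4 and 2 of them had an unadjusted p under 0.05 and DESeq2 called 0, 1, 1 and 0.

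In the interaction 5.14% of all genes tested were called. The called markers were 5 of 10 of peritubular and stromal cells, among them COL1A1 at 4.02 and ACTA2 at 2.54 on the log2 scale, 2 of 11 of spermatogonia (DAZL at 1.53 and KIT at 1.299), 1 of 5 of endothelial cells (PECAM1 at 1.92), 1 of 5 of macrophages (AIF1 at 1.94), and, below 0, 2 of 10 of spermatids (PRM1 at -1.83 and ACRV1 at -2.96, or -3.79 to -2.39 without 1 library). The calls of COL1A1, ACTA2, DAZL and PECAM1 held whichever library was left out, and each of the others was lost when any of 6 to 9 of the 12 libraries was left out. Limma on 1 or both FPKM scales lost those of AIF1, PRM1 and ACRV1, DESeq2 lost that of COL3A1, and the replicate block lost those of PRM1 and KIT. None of the 7 Leydig, 8 Sertoli and 8 spermatocyte markers was called there by edgeR, while 3, 5 and 4 of them had an unadjusted p under 0.05 and DESeq2 called 0, 2 and 1. Without Hb1, edgeR called 5 of the 7 Leydig markers above 0, both in the interaction and in Hb vs Lb, beside 5.61% and 3.73% of all genes called. The part of these cell types in the differences between the breeds was not tested.

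Lists of organs that make much cholesterol or steroid checked the tissue label. The liver list (3 of 3 markers, ALB the most abundant) was at no more than 0.60 FPKM in any library, with TTR listed at 0 in 11 of 12, and ALB was called higher in La than in Ha (log2 fold change 1.33), a call lost without any of 5 of the 6 libraries and under 7 other settings, which were DESeq2, limma on both FPKM scales, no filter, all 12 libraries in one fit, library totals and the replicate block. Of the adrenal-like list 2 of 3 markers were in the table, MRAP, the more abundant, at up to 26.3 FPKM and MC2R at no more than 0.11 FPKM. The defining markers of liver and the receptor MC2R were thus at or near 0. MRAP was not, and it fell with age in HZ boars (log2 fold change -2.69) and in LC boars (-2.04), so the adrenal-like list gave no single answer. The testis label fits the Sertoli, Leydig and germ cell markers.

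**Figure D3:**
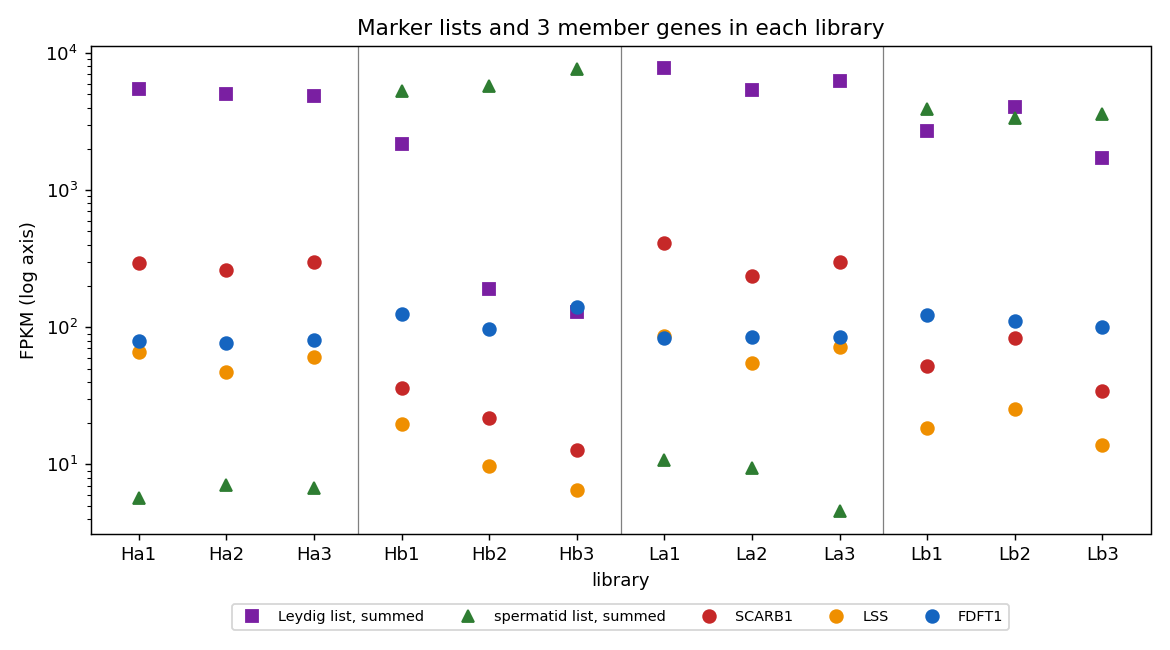
Summed FPKM of the Leydig list (squares) and the spermatid list (triangles) and FPKM of SCARB1, LSS and FDFT1 (circles) in each of the 12 libraries, on a log axis. Hb1 and Lb2 are the highest 120-day libraries of their groups for the Leydig list, SCARB1 and LSS, and FDFT1 is not ordered that way.

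For each gene the 3 named genes closest in pattern were taken from 15128 genes, by the root mean square difference of log2 CPM over the 12 libraries after centring each gene on its mean. For HMGCS1 they were MMD2 (0.26), RPS6KB1 (0.30) and AHCYL2 (0.31), and for DHCR7 they were MAPK3 (0.20), HADHA (0.23) and UQCR10 (0.24). For FDFT1 they were IP6K2 (0.09), PRPF31 (0.10) and MYDGF (0.10), and for SQLE they were ERCC8 (0.18), ELF2 (0.19) and EEF1G (0.19). For LSS they were SIAE (0.22), EBP (0.23) and CROT (0.23), and for SCARB1 they were TSC22D3 (0.25), LIPA (0.27) and CLIC1 (0.27). EBP and LIPA are also in the pathway list. Among the 6 genes themselves the closest pairs were FDFT1 with SQLE (0.27) and LSS with SCARB1 (0.54), and the farthest was FDFT1 with SCARB1 (1.90).

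No lncRNA transcript carries the symbol of 1 of these genes. Known lncRNA genes of RefSeq were searched only within 1 kb of a gene, and LSS, on an unplaced scaffold, was not searched. LOC106509287 lies 195 bases from DHCR7 and LOC106508153 lies 167 bases from HMGCS1, and both were chosen after the files were seen. The former had 0 counts in all 12 libraries and the latter 8 counts over the 12, no more than 2 in a library, so neither was tested.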

How the data were processed

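Ribosomal RNA was removed and strand-specific libraries were made from testis RNA by the authors. Per the submitters' processing notes and the methods of the study, reads were filtered with fastp 0.18.0, ribosomal reads removed with Bowtie2 2.2.8, the rest mapped to Sus scrofa 11.1 with HISAT2 2.1.0 and assembled with StringTie 1.3.4. The authors deposited estimated counts, not normalized, for each coding gene and lncRNA transcript in each library. The authors also deposited FPKM values, scaled by length and mapped fragments. The paper states that StringTie was used to calculate FPKM. Which program made the estimated counts is not given in the sources used here, and 31.6% of the gene counts are not whole, so they were rounded.

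Each comparison used the 6 libraries of its groups in edgeR 4.0.16 (R 4.3.3), with filterByExpr (minimum count 10), TMM factors and a quasi-likelihood test. The interaction is (Lb - La) - (Hb - Ha) in a model of all 12 libraries. The SE is the absolute log2 fold change divided by the square root of the F statistic. The scripts were tested on simulated data. Alternatives were DESeq2 1.42.0, limma 3.58.1 on log2(FPKM + 1) and log2(FPKM + 0.1), RLE factors, library totals, a filter of 10 counts in each library of a group, no filter, one fit of all 12 libraries, the replicate number as a block, and leaving out each library. Tables were made with Python 3.11.15, numpy 2.4.6 and pandas 2.3.3, and figures with matplotlib 3.10.9.

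The genes and lists were chosen with earlier results of these data known. All 7 listed genes and all early- and sterol-step genes are named, except 1 that is not reported here and is in no count of the list, and of the other pathway genes the 3 with the smallest adjusted p in each comparison and direction among those called. INSIG1 and NPC1, the genes named under an alternative, LOC100625049 and its use as IDI1 were chosen after values were seen. Gene positions are those of RefSeq on Sscrofa11.1. Libraries of a group are separate boars, and no 2 libraries held identical values. Precision is limited by 3 libraries in each group. CYP11B1 and promoter sequences were not analysed here.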

Additional observations from a re-analysis of the deposited data

Results flagged for a closer look

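The change with age differed between the breeds for 5 of 42 genes by the interaction test of edgeR at an adjusted p under 0.05, against 7.25% of 17332 genes tested, each given as the log2 change in LC boars minus that in HZ boars. For DHCR7 the difference was 1.63 (SE 0.23, adjusted p = 0.0039), with all 3 Ha libraries above La and all 3 Hb libraries below Lb, and it was called under each alternative, with 1.51 to 1.82 when a library was left out.

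For VLDLR, a lipoprotein receptor, the difference was 1.17 (SE 0.31, edgeR adjusted p = 0.0449). It was at 68.2, 69.6 and 50.4 CPM in Ha1 to Ha3, at 50.3, 45.6 and 25.3 in Hb1 to Hb3, at 44.5, 54.4 and 56.9 in La1 to La3, and at 75.8, 72.4 and 78.0 in Lb1 to Lb3. The HZ libraries were lower and the LC libraries higher at 120 days, with Ha3 and Hb1 nearly equal. The call was lost when any of 9 single libraries was left out, those other than Ha3, Hb1 and Hb2, with values from 0.97 to 1.29.

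CYP51 had a difference of -0.95 (SE 0.24, edgeR adjusted p = 0.0406), INSIG1, a sterol-dependent brake on synthesis, -0.86 (SE 0.22, edgeR adjusted p = 0.0396) and NPC1, a lysosomal cholesterol transporter, -0.69 (SE 0.19, edgeR adjusted p = 0.0493). These 3 were under the fold threshold, which CYP51 passed without Hb2 (-1.06) and without La2 (-1.07). They also lie close to the p threshold: of the 12 fits that left out 1 library, the edgeR adjusted p was over 0.05 in 10 for CYP51 (all but Hb2 and La2), in 10 for INSIG1 (all but Hb2 and La1) and in 11 for NPC1 (all but Hb2), with values of -1.07 to -0.79, -0.99 to -0.69 and -0.79 to -0.56. CYP51 rose in both breeds, with the call in LC boars depending on the scaling. INSIG1 was at 51.8, 61.4 and 48.5 CPM in Ha1 to Ha3, at 64.3, 50.7 and 65.4 in Hb1 to Hb3, at 68.6, 98.4 and 87.5 in La1 to La3, and at 55.0, 51.8 and 49.9 in Lb1 to Lb3, so La stood above the other groups. NPC1 was at 134, 119 and 117 CPM in Ha1 to Ha3, at 137, 103 and 123 in Hb1 to Hb3, at 138, 116 and 125 in La1 to La3, and at 77.2, 85.3 and 67.1 in Lb1 to Lb3, so Lb stood below the other groups.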

How the results depend on the processing

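Of 1470 log2 values recomputed for the 6 genes, LOC100625049 and genes of the pathway list, under each alternative and without each library, 1358 kept their direction and their side of the threshold, 22 passed it, 68 no longer did and 22 changed sign, all of these 22 in differences that were not called. For the 6 genes found by symbol, 455 of 480 kept both. The cause was not tested for any value given here.

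With limma on log2(FPKM + 1), log2(FPKM + 0.1) and library totals, in this order, FDPS in Ha vs Hb had -0.17, -0.17 and -0.021, GGPS1 in Ha vs Hb -0.35, -0.42 and -0.25, and GGPS1 in La vs Lb -0.17, -0.21 and -0.069. SQLE in La vs Lb had -0.10 on both FPKM scales. Leaving out a library gave -0.34 to 0.18 for HMGCS1 and -0.016 to 0.12 for GGPS1 in Ha vs Hb, -0.23 to 0.10 for FDPS in La vs Lb, -0.054 to 0.36 for SCARB1 in Ha vs La, and -0.10 to 0.85 for the interaction of LSS.

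Of the 6 genes, DESeq2 called 1 in Hb vs Lb. Of the pathway list, limma on log2(FPKM + 1) called 0 in Ha vs La, 1 in Hb vs Lb and 2 for the interaction, and RLE factors 0 for the interaction. Without 1 library the 6 genes had 0 to 2 calls in Ha vs La, and the list 0 to 1 in Ha vs La, 0 to 4 in Hb vs Lb and 0 to 2 for the interaction. With LOC100625049 counted as IDI1, chosen after seeing the data, the genes called with age were 5 of 7 in HZ boars and 4 of 7 in LC boars, beside 51.4% and 47.6% of all genes.

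Over all genes, the 628 calls of Hb vs Lb became 1176 with DESeq2, 1258 with all 12 libraries in one fit and 97 (without Lb2) to 1029 (without Hb2). The 890 of the interaction became 1363 with DESeq2 and 437 to 1242 without 1 library, and the 1192 of Ha vs La became 502 with limma on log2(FPKM + 1).

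The replicate numbers do not pair the libraries, since deviations from the group means correlated at -0.04 to 0.05 in 18 pairs with the same number and at -0.15 to 0.12 in 36 others. With the replicate block the list had 0 calls for the interaction, where VLDLR had 1.18, and FDFT1 in Ha vs Hb had 0.98 and was not called. No other call among the cholesterol genes was changed, and 154 of all genes were called in Hb vs Lb. Among the marker calls between the breeds, the block lost those of ALB, PIWIL1 and SYCP1 in Ha vs La and of PECAM1, AIF1 and AKAP4 in Hb vs Lb. In the interaction it lost those of PRM1 and KIT.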
